A study of Mus musculus with 2 samples.

Results

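The cells described are those that the deposited annotation of a mouse kidney single-cell data set names tDL (thin descending limb) and places in cluster 11. They numbered 411 of 11759 cells, chosen by that name and cluster number alone, and every cell of cluster 11 carried the name tDL. Of them, 391 came from the control library and 20 from the library of ischaemia-reperfusion injury (IRI). The control library came from normal kidney of wild-type C57BL/6 mice aged 9 weeks. The IRI library came from kidney of the same strain, genotype and age after unilateral ischaemia and reperfusion with removal of the other kidney. The labels do not give the number of mice behind a library. The control label names no nephrectomy and no label gives the time after injury, so the effects of ischaemia, of losing the other kidney and of the animals used cannot be told apart. Kidneys were dissociated with enzymes and strained before droplet capture. There was 1 library per condition, so no difference below has a replicate check and no p-value is given. Both libraries together held a second tDL cluster, cluster 9, with 36 control and 420 IRI cells.

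The proximal tubule reabsorbs most of the filtered water, salt, glucose and amino acids, and is divided into segments S1, S2 and S3. S3 is its straight end part, which runs down into the outer stripe of the outer medulla, and in mice it is known for the organic anion, amino acid and steroid handling genes that differ by sex. At the border of the inner stripe the S3 cell gives way abruptly to the thin descending limb, a flat epithelium with few mitochondria that carries the water channel Aqp1 and, in its different nephron types, genes such as Slc14a2, Bst1 and Sptssb. A cell of the thin limb and a cell of S3 are therefore neighbours in the tissue that differ widely in the genes they use.

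Values are depth-corrected counts as the authors deposited them, given as means per cell. A corrected count of 0 can hide molecules in a cell, as residuals given below for Inmt and Havcr1 show. The control library held 6589 cells with a median of 2344 raw UMIs (unique molecules), and the IRI library 5170 cells with 1888.5. Control cells of cluster 11 had a median of 1495 raw UMIs (range 302 to 22577) and of 629 genes, and the 20 IRI cells had 844 and 320. The median mitochondrial share of the counts was 24.9% in control and 34.4% in IRI cells of cluster 11. The libraries shared 55 cell barcodes, none of them among the control cells of cluster 11. The level in T and B cells, which should not make tubule transcripts, is used for tubule genes as the level that free RNA gives (86 control cells, median 2252 raw UMIs).

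Few counts of thin descending limb marker genes were found in the cells that carry that name. Of 12 thin descending limb genes in the table, 8 had no corrected count in any of the 391 control cells, among them Slc14a2, Bst1, Epha7, Slc4a11, Fst, Sptssb and Cdh13. For each of these a count of 0 allows a share of up to 0.767% of the cells with a count, for counting error only. Among those with counts, Cp had 3 and Jag1 had 1. The 12 genes summed to 0.596 in cluster 11, 1.14 in control cluster 9 and 0.105 in T and B cells. Aqp1 was the exception and made up most of the sum in cluster 11, at 0.570 per cell. That level was below PT-S3 as a whole (0.827), close to PT-S3 cluster 4 (0.555) and well under PT-S3 cluster 21 (2.67), while cluster 9 had 0.250 and T and B cells 0.0814. Slc14a2, Epha7, Fst and Cdh13 were at 0 in control cluster 9 too, so their zeros say nothing about the name. Sptssb (0.139), Slc4a11 (0.0556) and Bst1 (0.0278) did have counts in control cluster 9, as did Jag1 (0.167), which was higher still in intercalated cells (0.211). Of 8 genes of thin ascending limb and simple epithelium, 5 were at 0 in cluster 11, among them Krt18, Krt19 and Cldn4, which had 1.47, 0.639 and 0.417 in control cluster 9. Krt8 (0.0997, in 27 of 391 cells), Cldn3 (0.0460) and Krt7 (3 counts) were not at 0, and the list summed to 0.1535 in cluster 11, 4.25 in control cluster 9 and 0.0233 in T and B cells. The cells are therefore called by their cluster number below.

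Markers of most other nephron parts and cell types had low sums. The summed level of 8 thick ascending limb genes was 0.253 in cluster 11, 29.99 in the annotated TAL cells and 0.244 in T and B cells. For 9 distal convoluted and connecting tubule genes the sum was 1.13 in cluster 11 and 1.14 in T and B cells. Over 8 principal cell genes the sum was 0.0665, against 0.0349 in T and B cells and 9.53 in control cluster 9. Intercalated, endothelial, stromal and podocyte lists summed to 0.0614 or less in control cells of cluster 11. The immune list summed to 0.197 in cluster 11 and 0.195 in control PT-S3; T and B cells make these transcripts and give no free RNA level for it.

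Genes of the proximal tubule were present, though not all stood above free RNA. Over the 20 core genes the sum was 15.17 in cluster 11, 32.48 in control PT-S3 and 3.151 in T and B cells. Control PT-S2 cells had 16.97, and PT-S2 cluster 2 had 13.99, so a sum below that of PT-S3 was not particular to cluster 11. The fatty acid transporter and acyl-CoA synthetase Slc27a2 stood at 2.18 corrected counts per cell in cluster 11, against 0.209 in T and B cells. The brush border scaffold Pdzk1 was at 1.22 and 0.0814. Kap, the abundant kidney androgen-regulated transcript of the straight tubule, averaged 75.6 in cluster 11 and 75.8 in PT-S3 cluster 4, and 5.65 in T and B cells. All 3 genes stood far above free RNA, and control cluster 9 had less of each (0.444, 0.417 and 10.6). Of the 20 core genes, 2 were at or below the T and B cell level, 1 of them at 0. The core gene Slc34a1 was close to that level, at 0.573 in cluster 11 against 0.5.

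Among segment lists, S3 genes stood near the level of PT-S3 cluster 4, and most S2 genes were low. Slc7a13, an S3 amino acid transporter, had 0.757 per cell in cluster 11, 0.857 in PT-S3 cluster 4, 0.1996 in PT-S2 and 0.0581 in T and B cells. Slc5a8, which carries lactate and other monocarboxylates, had 0.478, against 0.553 in cluster 4 and 0.0657 in PT-S2. Acsm3, a mitochondrial acyl-CoA synthetase, stood at 1.05, above the 0.642 of cluster 4, and the organic anion transporter Slc22a7 at 0.427, above 0.162. Of 15 S3 genes, none was at or below its level in T and B cells. By contrast Slc22a6, the organic anion transporter typical of S2, had 0.0537 in cluster 11, 0.941 in cluster 4 and 0.0465 in T and B cells, which is no more than free RNA gives. Slc13a3, a dicarboxylate transporter, stood at 0.0818 against 0.590. The urate transporter Slc22a12 was the S2 gene with the highest level in cluster 11, at 0.619 against 0.0698 in T and B cells. These textbook S2 genes did not follow the authors' names: the cells annotated PT-S2 had 0.195 Slc22a6, 0.0704 Slc13a3 and 0.283 Cyp2e1, each below PT-S3 (1.01, 0.689 and 1.76). The map of mean levels shows this pattern for all groups.

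**Figure D1:**
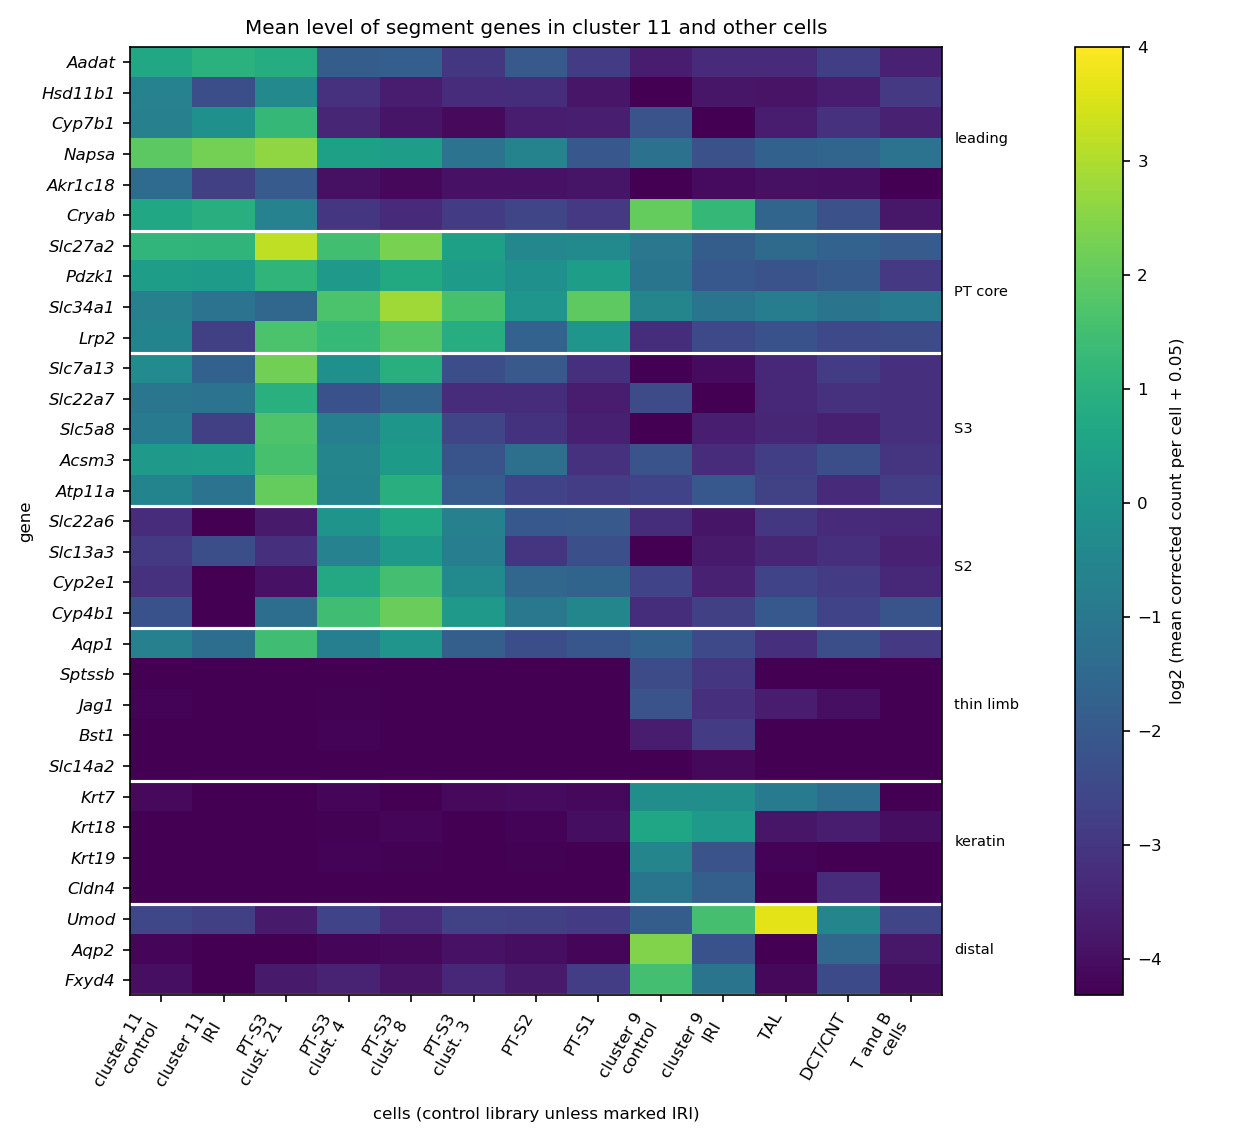
Colour gives log2 of the mean corrected count per cell plus 0.05 for the genes named at the left, in the groups of cells named below, all from the control library unless marked IRI. The leading genes are bright in cluster 11 and PT-S3 cluster 21, and the thin limb and keratin genes of cluster 11 are at or near 0 except Aqp1, which the other proximal groups also carry.

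The 6 leading markers show where cluster 11 stands apart from most PT-S3 cells. Aadat, a mitochondrial aminotransferase of kynurenine and lysine breakdown, averaged 1.53 in control cells of cluster 11, 0.226 in PT-S3 cluster 4 and 0.231 in PT-S3 cluster 8. Hsd11b1, which regenerates active glucocorticoid, stood at 0.591, against 0.0647 and 0.0286. Cyp7b1, an oxysterol hydroxylase, was at 0.573, against 0.0431 and 0.0198. The lysosomal aspartic protease Napsa was at 3.67, against 1.27 and 1.18. Akr1c18, a progesterone-reducing enzyme, was at 0.330, against 0.0148 and 0.00659. Cryab, a small heat shock protein abundant in the medulla, was at 1.504, against 0.0741 and 0.0484. All 6 were thus more than 2-fold above both of the large PT-S3 clusters.

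The smallest PT-S3 cluster, cluster 21 (118 control cells and 1 IRI cell), also carried these 6 genes. It had 1.71 Aadat, 0.703 Hsd11b1, 2.31 Cyp7b1, 6.14 Napsa, 0.212 Akr1c18 and 0.602 Cryab. Aadat, Hsd11b1, Napsa and Akr1c18 lay within 2-fold of cluster 11. Cyp7b1 was lower in cluster 11 than in cluster 21 (log2 ratio -1.92) and Cryab higher (1.25). In the other 3 control PT-S3 clusters Cyp7b1 averaged 0.0431 or less. Summed over the 6 genes, the mean was 8.19 in cluster 11, 11.7 in cluster 21, 1.70 in cluster 4 and 0.570 in T and B cells. Since the authors' clusters were formed on the same expression values, a difference between clusters is a description of them and not a test.

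Against all 1442 control PT-S3 cells, 44 of 6939 measured genes were at least 2-fold higher in cluster 11 (0.634%) and 339 were at least 2-fold lower (4.89%). Genes with 30 or more corrected counts over both groups are called measured, and 0.05 was added to each mean before the ratio. The median log2 ratio of all measured genes was -0.19; with a scaling by the trimmed mean of log ratios, which moved all ratios by 0.39, the counts were 144 higher and 225 lower. Cryab led the higher genes (log2 ratio 3.28), followed by the calcium-binding protein S100a11 (2.45), Akr1c18 (2.28), the serine protease inhibitor Serpina1d (2.15), Hsd11b1 (2.05), the glutathione transferase Gstm1 (2.04) and Aadat (2.03). Then came the potassium channel Kcnk1 (1.89), the branched-chain aminotransferase Bcat1 (1.47), Serpina1f (1.46), the fatty acid dehydrogenase Acadm (1.45), Apobec2 (1.39), Mettl7a2 (1.32), Mpv17l (1.30) and the cysteine dioxygenase Cdo1 (1.30). S100a11 stood apart from the other 14, which all had a higher mean in PT-S3 cluster 21 than in cluster 4 by more than 2-fold: it was at 2.34 in cluster 11, 0.509 in cluster 21, 0.499 in cluster 4 and 0.861 in T and B cells.

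Of the 15 genes with the lowest ratios to PT-S3, 3 belong to the S2 list (Cyp2e1, Cyp4b1 and Slc22a6), 1 to the S1 list (Slc4a4) and 1 to the core list (Slc34a1). The cytochrome P450 genes Cyp2e1 (-3.99) and Cyp4b1 (-3.75), the glucuronosyltransferase Ugt2b38 (-3.72), transthyretin (Ttr, -3.59) and Slc22a6 (-3.36) led the list with the nuclear RNA Malat1 (-3.97). Timp3 (-3.31), Igfbp4 (-3.20), Dnase1 (-2.90), G6pc (-2.90), Dusp1 (-2.88), the bicarbonate cotransporter Slc4a4 (-2.85), Errfi1 (-2.80) and the phosphate cotransporter Slc34a1 (-2.73) followed. Cluster 21 was low in several of them too: Cyp2e1 had 0.0639 in cluster 11, 0.0169 in cluster 21 and 1.56 in cluster 4, and Slc34a1 had 0.573, 0.288 and 3.07. Ttr, G6pc and Slc4a4 were each at 0.105 or less in both. Malat1 did not follow this pattern, at 2.95 in cluster 11, 2.11 in cluster 4, 39.8 in cluster 21 and 135 in cluster 8. Among control cells of cluster 11 with a corrected Malat1 count, the deposited residual was below 0 in 114 of 121 cells with at least 1000 raw UMIs and in 129 of 142 shallower ones, so fewer molecules were found there than the authors' model gave.

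By list, beside 0.634% of all measured genes higher and 4.89% lower, all 7 S2 genes were at least 2-fold lower than in control PT-S3 (median log2 ratio -2.49), as were 5 of 8 S1 genes (median -1.33) and 8 of 19 measured core proximal tubule genes (median -0.89), among them Lrp2 (megalin, 0.622 against 2.69) and Slc34a1. Of 14 measured S3 genes, 1 was lower (Slc7a9) and none was higher, with a median of -0.62. Against PT-S3 cluster 4 alone, where 1.18% of 5242 genes were higher and 2.94% lower, the S3 median was -0.02 with 2 genes higher (Slc22a7 and Slc22a19) and none lower. Against cluster 21, where 16.8% of 2964 genes were higher and 21.1% lower, 12 of 13 S3 genes were lower in cluster 11 (median -2.07). The median depth was 1495 raw UMIs in cluster 11, 2373.5 in cluster 4 and 10278 in cluster 21; the part of depth in these differences was not tested.

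Among metabolic groups, again beside 0.634% of all genes higher and 4.89% lower than in PT-S3, 4 of 9 measured steroid and sterol enzymes were at least 2-fold higher than in PT-S3 (Hsd11b1, Cyp7b1, Akr1c18 and Akr1c14) and 1 was lower (Hsd17b11), with a list median of 0.13. The first 3 of the 4 are leading markers, by which the cells were described from the start. Hsd11b2, the opposing glucocorticoid-inactivating enzyme of the collecting duct, had 1 count in 391 cells. Of 6 measured genes of kynurenine and tryptophan breakdown, Aadat was higher and Acmsd lower. Gstm1 was the glutathione gene that was higher (3.09 against 0.714), whereas the glutathione peroxidases Gpx1 (6.95 against 14.4) and Gpx3 (7.39 against 28.7) were lower. Of 13 peroxisomal genes none was higher and 2 were lower, and of 7 genes of gluconeogenesis and fructose use none was higher and 3 were lower. Among 13 measured tubule transcription factors, Irx1 was higher and Maf lower. Irx1 had 0.143 in cluster 11, 0.407 in cluster 21, 0.00674 in cluster 4 and 0.213 in the TAL cells.

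Cryab was the one higher gene of the list of medullary osmolyte and chaperone genes. Akr1b3, which makes sorbitol, was at 0.0460 in cluster 11 and 1.72 in control cluster 9, and Hspb1, another small heat shock protein, at 0.00767 and 0.306. The taurine transporter Slc6a6 was lower in cluster 11 (0.118) than in PT-S3 (0.419). Control cluster 9 had more Cryab than cluster 11 (4.00 against 1.504), and it was the only leading marker that was not at least 2-fold higher in cluster 11 than in cluster 9.

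To set the likeness to cluster 21 beside cells that took no part in it, genes at least 4-fold higher in PT-S3 cluster 21 than in PT-S3 cluster 8, with a mean of at least 0.2, were listed, and then read in cluster 11 over cluster 4. Both clusters of the second pair are low in Malat1 and none of their cells enters the first, although all come from 1 library. There were 55 such genes of 3899 (1.41%; at 2-fold, 5.39% were higher and 9.44% lower), and 50 of them were measured in the second pair. At least 2-fold higher in cluster 11 were 35, and none was 2-fold lower (median log2 ratio 1.43, where 1.18% of all measured genes were higher). Among the 35 were Aadat, Hsd11b1, Cyp7b1, Napsa and Cryab, leading markers known beforehand to be high in cluster 11. The limit of 30 summed counts left out Snhg11, Aqp4, Klf4, Slc22a26 and Tet2, low in both clusters. Some genes passed it almost through cluster 11 alone, as Bcat1 did with 113 counts there. The 35 are therefore a description and not a test. The methyltransferase-like gene Mettl7a2 was at 0.430 in cluster 11 and 0.0148 in cluster 4 (2.89), Serpina1d at 0.675 and 0.0364 (3.07), and Bcat1 at 0.289 and 0.00539 (2.61). Not all of the 55 were 2-fold higher in cluster 11. The ecto-nucleotidase Nt5e had 0.712 in cluster 21, 0.0486 in cluster 11 and 0.02426 in cluster 4 (0.41). Tet2, with 0.754, 0.0153 and 0.01482, was not measured in the second pair.

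**Figure D2:**
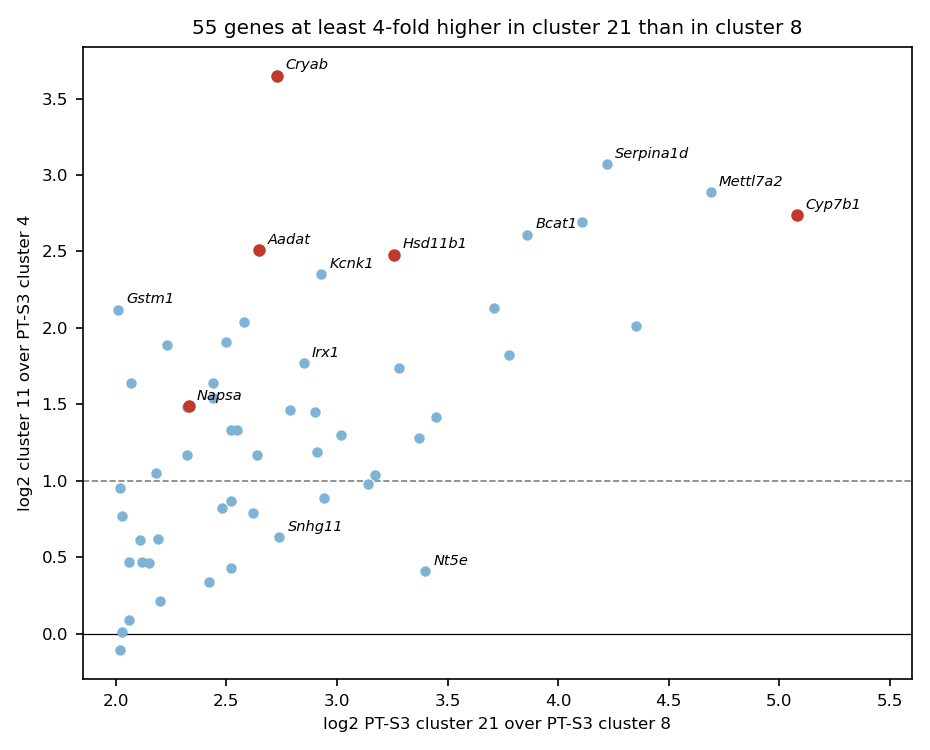
Each point is 1 of 55 genes chosen as at least 4-fold higher in PT-S3 cluster 21 than in PT-S3 cluster 8 (x axis, log2 ratio); the y axis gives its log2 ratio in cluster 11 over PT-S3 cluster 4, all in the control library, and the dashed line marks 2-fold. Leading markers are in red; 1 gene lies below 0 on the y axis, at -0.11.

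Many single cells held more than 1 leading marker. Whether the markers met in the same cells more often than their single shares give was not tested. The 6 genes were known beforehand to be high in cluster 11, so its higher shares are a description. At least 1 corrected count was found for Napsa in 84.4% of the 391 control cells, for Aadat in 56.5%, for Cryab in 53.5%, for Cyp7b1 in 32.2%, for Hsd11b1 in 31.5% and for Akr1c18 in 18.9%. At least 2 of the 6 were found in 314 cells (80.3%, exact 95% interval 76.0 to 84.1) and at least 3 in 215 cells (55.0%, 49.9 to 59.99). The share with at least 3 was 87.3% in cluster 21 (median 10278 raw UMIs), 3.50% in cluster 4, and 0 of 36 control cells in cluster 9 and 0 of 86 T and B cells, which allow shares of up to 8.33% and 3.49%. Cells of cluster 11 with at least 1000 raw UMIs gave 70.7% (176 of 249). No thinning to equal depth was done, since raw counts were not used here, and intervals cover counting error only. The median depth was 2373.5 raw UMIs in cluster 4 and 2252 in T and B cells, against 1495 in cluster 11, and the part of depth in the shares was not tested.

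**Figure D3:**
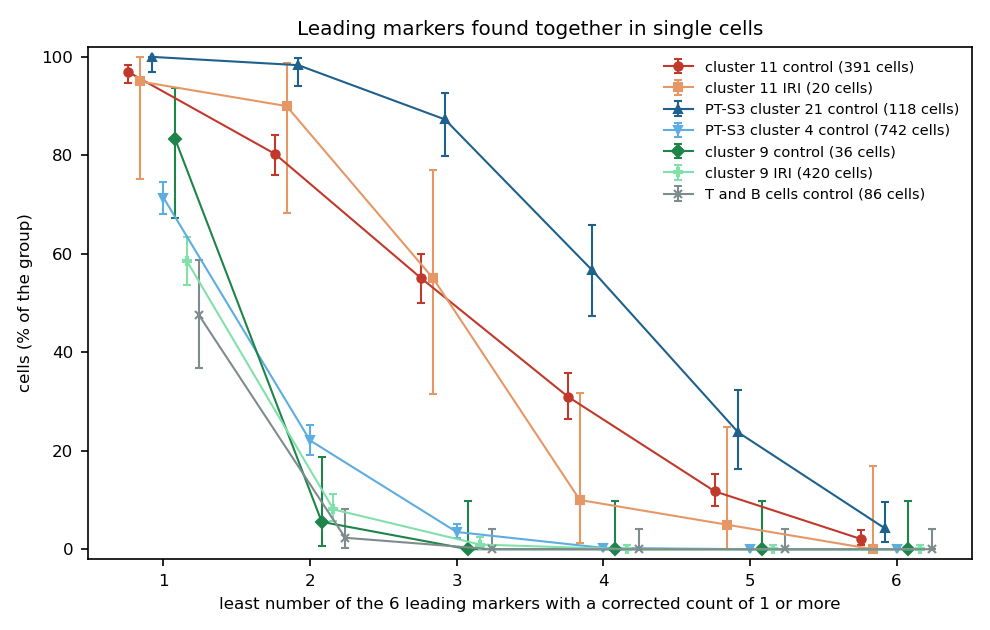
Points give the share of cells (y axis, percent) with a corrected count for at least the number of leading markers on the x axis, with exact 95% intervals, for 7 groups of cells. Cluster 11 of both libraries lies between PT-S3 cluster 21 above and PT-S3 cluster 4, cluster 9 and T and B cells below at 2 and 3 markers.

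Deeper cells showed the leading markers more often. With the control cells split by depth into 4 sets of 97 or 98, from the shallowest set (302 to 719 raw UMIs) to the deepest (3541 to 22577), the share with Aadat went from 41.8% to 80.6% and that with Cryab from 33.7% to 72.5%. The mean of Aadat went from 1.51 to 2.19 corrected counts and that of Cryab from 0.980 to 2.38. Both genes were found in all 4 sets, and the mean of Aadat had no steady order, with 1.16 and 1.25 in the middle sets.

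Members with and without Cryab differed in part of the leading genes. Of the 249 control cells with at least 1000 raw UMIs, 157 had a Cryab count. Those 157 averaged 2.01 Aadat, 0.847 Hsd11b1, 0.452 Akr1c18, 0.459 Bcat1 and 3.17 S100a11. The 92 cells without Cryab averaged 0.793 Aadat, 0.359 Hsd11b1, 0.217 Akr1c18, 0.130 Bcat1 and 1.71 S100a11. For Cyp7b1 (0.650 and 0.663) and Napsa (3.76 and 4.03) the 2 sets of cells were close. Slc7a13 (0.783 and 1.20), Kap (70.2 and 92.1) and Slc34a1 (0.217 and 0.554) were lower in the cells with Cryab. The cells with Cryab were deeper, with a median of 3139 against 1869.5 raw UMIs, and the part of depth was not tested.

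Over whole profiles control cluster 11 was most like proximal tubule clusters. Across 4672 genes, Spearman's rho between the mean profile of control cluster 11 and that of other clusters was 0.941 for both PT-S3 cluster 4 and PT-S2 cluster 2, 0.841 for PT-S3 cluster 21, 0.779 for TAL and 0.610 for control cluster 9. With the mean of T and B cells taken off each gene, PT-S3 cluster 4 was the most alike (0.858), followed by PT-S3 cluster 3 (0.799) and PT-S2 cluster 1 (0.787), with 0.650 for cluster 21 and 0.432 for cluster 9. These are correlations across genes, which are not replicates, and the clusters share a library, free RNA and depth classes.

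**Figure D4:**
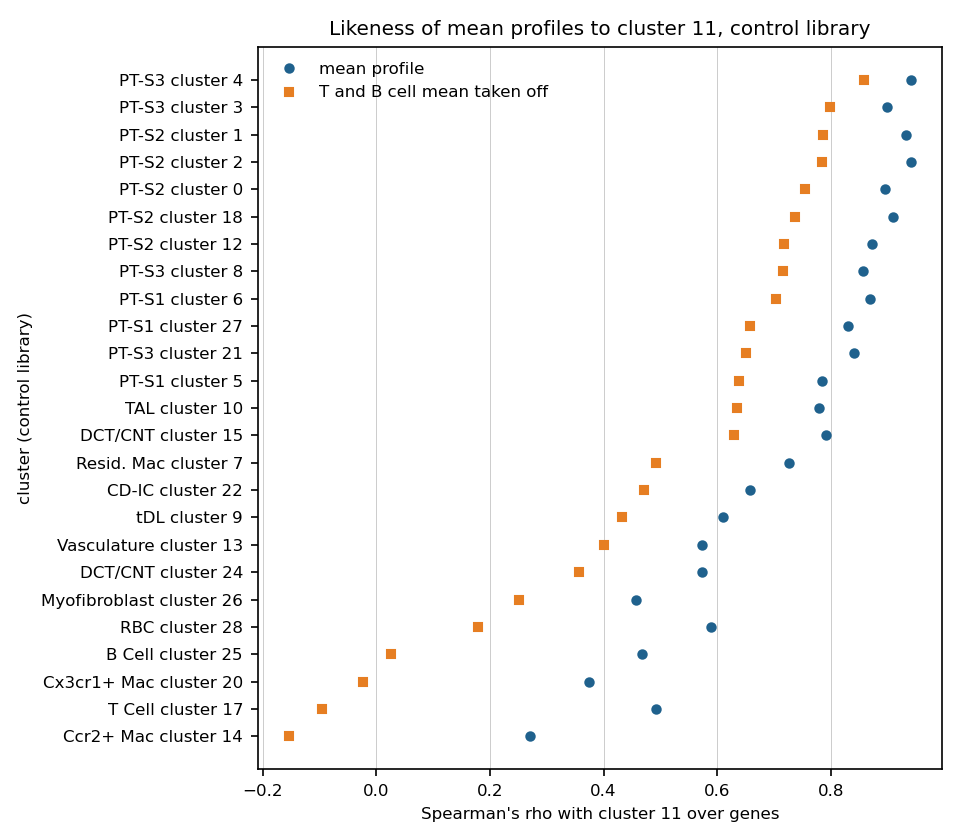
Points give Spearman's rho across genes between the mean profile of control cluster 11 and each of the 25 other control clusters with at least 20 cells, before (circles) and after (squares) the T and B cell mean was taken off. The 11 highest circles are proximal tubule clusters, and tDL cluster 9 lies below TAL on both measures.

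Each cell was also set beside the mean profiles of 7 groups over 2101 genes. The cluster 9 profile joined its 36 control and 420 IRI cells, and the other profiles held control cells only. Of the 391 control cells, 272 were nearest to PT-S2 (69.6%), 119 to PT-S3 (30.4%) and none to PT-S1, cluster 9, TAL, DCT/CNT or CD-IC (intercalated cells). Cells of PT-S3 cluster 4 were also nearest to PT-S2 in 31.8% of cases, whereas all 118 cells of cluster 21 were nearest to PT-S3 and 32 of 36 control cells of cluster 9 to cluster 9. These reference cells are themselves part of the PT-S3 or cluster 9 profile, which favours their own profile. Cluster 11 is in none of the profiles, so its shares are not directly comparable with theirs. The PT-S3 profile includes the Malat1-rich clusters 8 and 21 (Malat1 46.9 over all PT-S3), while the 5 PT-S2 clusters have 3.66 or less, and cluster 11 has 2.95. Of the 20 IRI cells, 10 were nearest to PT-S3, 8 to PT-S2 and 2 to cluster 9. With PT-S3 represented by cluster 4 alone, an alternative chosen after seeing the data, 225 cells were nearest to PT-S2 and 166 to PT-S3. Cluster 21 as its own profile was also chosen after seeing the data. Then 276 control cells were nearest to PT-S2, 86 to the rest of PT-S3 and 29 to cluster 21 (7.42%). Their median correlation was 0.418 with cluster 21, 0.512 with PT-S2 and 0.421 with cluster 9. The split between S2 and S3 therefore moved with the reference, while no control cell of cluster 11 was nearest to cluster 9 in any of these settings. That profile came mostly from IRI cells, and a profile of control cluster 9 cells alone was not tested. Since the annotated PT-S2 cells have little of the textbook S2 genes, a cell nearest to them is not thereby rich in those genes.

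The 2 clusters named tDL differed in named proximal tubule and keratin genes. Of 2410 measured genes, 684 were at least 2-fold higher in cluster 11 than in the 36 control cells of cluster 9 (28.4%) and 177 were lower (7.34%). With the trimmed mean scaling the counts were 1257 and 74. With no filter on summed counts the balance turned, to 910 higher and 1281 lower of 15169 genes, so no direction is drawn from the counts. The brush border protease Mep1a (1.24 per cell in cluster 11), Bphl (1.17), Tmigd1 (1.01), Slc7a13 (0.757), Cisd3 (0.711), the malic enzyme Me1 (0.647), the urate transporter Slc22a12 (0.619) and Hsd11b1 (0.591) were listed at 0 in control cluster 9, so no ratio is given. Aadat (1.53 against 0.0278) and the glycerol kinase Gk (0.957 against 0.0278) were the other leading higher genes.

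The 10 named lower genes included the keratin Krt18 and the principal cell genes Aqp2 and Fxyd4. S100a6 was at 0.00256 in cluster 11 and 5.53 in cluster 9 (log2 ratio -6.73), Aqp2 at 0.00512 and 5.33 (-6.61), Nupr1 at 0.0102 and 3.19 (-5.75), Fxyd4 at 0.0128 and 2.78 (-5.49) and clusterin (Clu) at 0.0230 and 2.89 (-5.33). Wfdc2 (-5.12), Psca (-4.96) and Bcam (-4.60) followed, and Sprr1a and Krt18 were at 0 in cluster 11 and at 1.89 and 1.47 in cluster 9. Aqp2 is the water channel of the collecting duct, so control cluster 9 held principal cell transcripts as well as Sptssb. Against the 420 IRI cells of cluster 9, in which Aqp2 was at 0.164, 570 of 4131 genes were higher in control cluster 11 (13.8%) and 489 lower (11.8%). Of 15 S3 genes, 11 were measured there and 10 were higher in cluster 11.

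Cluster 11 made up 391 of 6589 control cells (5.93%, exact 95% interval 5.38 to 6.53) and 20 of 5170 IRI cells (0.387%, 0.237 to 0.597). The ratio of the shares was 0.0652 (0.0394 to 0.102), and 0.0713 over epithelial cells only. Over cells with at least 1000 raw UMIs it was 0.0414 (0.0177 to 0.0828), and over those with at least 2000 it was 0.0365. Several other proximal clusters were control-rich too: PT-S3 cluster 21 had 118 and 1 cells (ratio 0.0108), PT-S3 cluster 8 had 455 and 4 (0.0112), PT-S3 cluster 4 had 742 and 58 (0.0996) and PT-S2 cluster 1 had 1283 and 25 (0.0248). PT-S3 cluster 3 (127 and 727 cells, ratio 7.30) and tDL cluster 9 (14.9) went the other way. A lower share may be fewer cells, or cells whose changed expression moved them to another cluster, and shares of a library are not numbers of cells in a kidney. These cannot be told apart here.

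**Figure D5:**
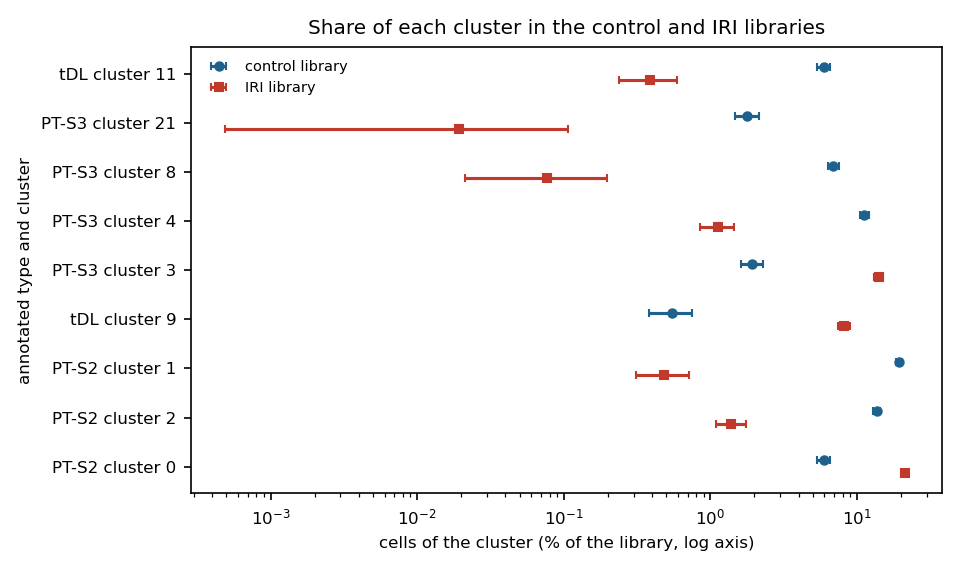
Points give each cluster's share of all cells of the control (circles) and IRI (squares) library on a log axis, in percent, with exact 95% intervals for counting error. Cluster 11 and PT-S3 clusters 21, 8 and 4 are control-rich, whereas PT-S3 cluster 3, tDL cluster 9 and PT-S2 cluster 0 are IRI-rich.

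The 20 IRI cells also carried leading genes, and since clusters were formed on expression, cells without them may not have been placed here. Aadat was at 1.95 per cell (39 counts, in 13 of 20 cells), Napsa at 4.75 (18 of 20), Cyp7b1 at 0.850 (7 of 20) and Cryab at 1.80 (9 of 20). Hsd11b1 had 3 counts and Akr1c18 had 2. At least 3 leading markers were found in 11 of the 20 cells (55.0%, 31.5 to 76.9). All IRI PT-S3 cells together, 727 of 790 of which belonged to cluster 3, had 0.0873 Aadat, 0.552 Napsa, 0.00380 Cyp7b1 and 0.205 Cryab. Kap ranged from 8 to 282 in the 20 cells, with a mean of 144, against 75.6 in control cells of cluster 11 and 29.3 in IRI PT-S3.

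Between IRI and control cells of cluster 11, 85 of 2303 measured genes were at least 2-fold higher (3.69%) and 559 lower (24.3%), around a median of -0.36 over all genes. In PT-S3 the same contrast gave 1.44% of 7720 genes higher and 3.1% lower. The trimmed mean scaling lowered ratios by 0.50 and gave 16 higher and 779 lower. Single genes are therefore given with their counts, and no direction is drawn from the numbers. In data simulated for this comparison over 1027 genes, 200 of them changed 4-fold, 40 of the 827 unchanged genes (4.84%) passed 2-fold. The simulation drew Poisson counts for genes with a mean of at least 0.2, without the spread between cells. It left out the weaker of the 2303 genes, so 4.84% is not the share of false calls among them. The 8 genes that led the lower end were Mrps24, Dynlrb1, Inmt, Aurkaip1, Psma7, Adhfe1, Echdc2 and Thoc7. All were listed at 0 in the IRI cells, with control means between 0.363 and 0.573. For Inmt, however, 3 of the 20 IRI cells had a deposited residual above 0, so a corrected count of 0 can hide molecules. Among control cells the Inmt residual was above 0 in 42 of 249 with at least 1000 raw UMIs and in 31 of 142 shallower ones. At the higher end Dda1, Trip12, Krt8, Atp6v1h, Ubl3, Sar1a and Ctsd rested on 7 to 9 counts each. Krt8, a keratin of simple and injured epithelium, had counts in 6 cells of 20 after IRI, against 27 of 391 in the control. Slc7a12, an S3 amino acid transporter, had 9 counts in 4 IRI cells and 11 counts in 7 control cells.

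The 15 tubule injury genes summed to 2.50 corrected counts per cell in the IRI cells of cluster 11 and 0.358 in the control cells, against 75.0 in IRI cluster 9. T and B cells make some of these transcripts, S100a6 among them, and give no free RNA level for the list. Havcr1, the tubule injury molecule, had 4 corrected counts in 2 of 20 cells, against none in 391 control cells. Yet 2 of the 142 control cells below 1000 raw UMIs had a Havcr1 residual above 0, so the control zeros may not all be an absence of molecules. The calcium-binding protein S100a6 had 8 counts in 3 IRI cells and 1 count in the control cells. Lcn2 had 2 counts in 1 cell and Krt20 had 1 count. Spp1 (osteopontin) was the 1 gene of this list with at least 30 summed counts, and it led the named higher genes at 1.35 against 0.246. But in 11 of the 13 IRI cells with a corrected count the deposited residual was below 0. That means fewer molecules than the authors' model gave for that depth, which can include none. The same held for 73 of 76 control cells below 1000 raw UMIs. IRI PT-S3 cells had 13.9 Spp1 and IRI T and B cells 1.15. For Aadat, Cryab, Cyp7b1, Hsd11b1 and Akr1c18 no cell of cluster 11 with a corrected count had a residual below 0. For Slc34a1 it was so in 41 of 55 deeper and 77 of 97 shallower control cells with a count.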

How the data were processed

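Droplet single-cell data, 1 control and 1 IRI kidney library, were made into tables with Cell Ranger 3.0.0 and Seurat 3.2; the build named is mm9, per the submitters' processing notes. The authors deposited a score per gene and cell, whole depth-corrected counts of the kind SCTransform gives, for 15169 genes in 11759 cells, with their natural log (ln of the value plus 1) and residuals, also a score, for part of the genes. Raw counts were not used here. The deposited annotation has no separators; corrected totals matched it in all 11759 cells, but for 82 of the 411 members the run of digits for raw UMIs and gene number could be cut in several ways with at least 200 genes. A curve of a rare gene's residual against depth then chose, and took the smallest raw depth in each. Filters on cells were the authors'; doublets were not called. Coordinates were not used.

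Means of corrected counts were compared as log2 ratios after adding 0.05, for genes with at least 30 summed counts, with a limit of 2-fold (Python 3.11.15, numpy 2.4.6, scipy 1.17.1). Named genes are the 15 highest and 15 lowest ratios against PT-S3, 10 and 10 against control cluster 9, and 8 and 8 between libraries. They had a mean of at least 0.2 in the higher group and at least the T and B cell level, without mitochondrial, ribosomal protein, haemoglobin, Gm and Rik genes. Some genes that met these rules are not reported here. Members of 26 gene lists (235 of 239 genes in the table) were named besides, and the genes shown for cluster 21, Nt5e and Tet2 included, were chosen after their values were seen. Shares have exact Clopper-Pearson 95% intervals; a count of 0 allows 3 counts. On simulated Poisson counts of genes with a mean of at least 0.2, 100% of 4-fold changes against PT-S3 were recovered, 97.5% against cluster 9 and 92.5% between libraries. The members and lists were chosen with earlier results of these data known.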

Additional observations from a re-analysis of the deposited data

Results flagged for a closer look

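Cd74, a gene of antigen presentation and not a tubule marker, had ratios of opposite sign between the libraries in 2 groups of cells. Its log2 ratio of IRI over control was -1.58 in cluster 11, where 39 counts in 391 control cells stood against none in 20 IRI cells, and 1.07 in PT-S3. With no count in so few and shallow cells, the ratio in cluster 11 depends on the 0.05 added and shows no change, and the difference was not tested. T and B cells had 8.67 corrected counts per cell in the control and 8.93 after IRI.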

How the results depend on the processing

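Depth limits the 20 IRI cells most: 8 had at least 1000 raw UMIs, so that setting was not run for IRI against control. No paired analysis was possible because each condition has 1 library. Of 918 values of named genes under other settings 811 kept direction and side of 2-fold, 86 dropped below it, 1 passed it and 20 reversed. Unless stated below, counts (higher, then lower) were within 1.5 times those reported.

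Against PT-S3, counts were 106 and 1275 with 0.01 added, 10 and 89 with 0.2 added, 144 and 225 with trimmed mean scaling, 3 and 8 from mean log values, 78 higher with at least 1000 raw UMIs, 149 higher after free RNA was subtracted, and 125 and 178 against cluster 3. Chosen after seeing the data, they were 498 and 625 against cluster 21, and 154 lower against cluster 4. Against cluster 21 these reversed: Aadat -0.16, Acadm -0.77, Bcat1 -1.33, Cdo1 -0.54, Cyp2e1 0.77, Cyp7b1 -1.92, G6pc 0.14, Hsd11b1 -0.23, Kcnk1 -0.33, Mettl7a2 -1.76, Mpv17l -0.78, Napsa -0.74, Serpina1d -0.65, Serpina1f -1.44, Slc22a6 0.46, Slc34a1 0.88 and Ttr 0.88. Malat1 reversed against cluster 3 (1.58) and cluster 4 (0.47). Spp1 between libraries reversed without free RNA (-0.06). In all these settings free RNA stands for the T and B cell mean, which is too high a level for genes that T and B cells make.

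Against control cluster 9 they were 209 and 84 with 0.2 added, 574 and 1281 lower with at least 10 counts and with no filter, 1257 and 74 with trimmed mean scaling, 21 and 8 from log values, and 489 lower against IRI cluster 9. Between libraries they were 131 higher with 0.01 added, 14 and 92 with 0.2 added, 299 and 891 with at least 10 counts, 630 and 891 with no filter, 16 higher with trimmed mean scaling, 131 higher with totals without mitochondrial, ribosomal and haemoglobin genes, 0 and 2 from log values, and 196 higher without free RNA. In cells of 466 to 1500 raw UMIs, chosen after seeing the data, they were 35 and 214 of 909 genes. The cause of these moves was not tested.

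The ratio of shares was 0.0365 with at least 2000 raw UMIs. The share nearest to PT-S2 was 62.4% with Pearson's r, 80.6% with genes of mean at least 1 and 57.5% with PT-S3 from cluster 4. At least 2 leading markers were found in 58.8% of cells at a count of 2, and in 90.4% with at least 1000 raw UMIs.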

Other observations

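No gene was particular to cluster 11 by level. Among genes with a mean of at least 0.2, the highest ratio of control cluster 11 over the highest of 25 other control clusters was that of Akr1c18 (log2 0.54, 0.330 against 0.212 in PT-S3 cluster 21). Apobec2 (0.19) and the acyl-CoA thioesterase Acot1 (0.10) also had PT-S3 cluster 21 as the highest other cluster, and Gchfr (0.11) had PT-S2 cluster 1. None reached 2-fold, and Aadat was at -0.16, behind cluster 21.

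The authors' proximal clusters differed in nuclear RNA, and cluster 11 had as little as PT-S3 cluster 4. The mean of Neat1, another nuclear RNA, was 0.115 in cluster 11 and 0.112 in PT-S3 cluster 4, but 2.24 in cluster 8 and 2.47 in cluster 21. The median share of ribosomal protein counts was 13.4% in cluster 11, 10.2% in cluster 4, 6.95% in cluster 8 and 5.91% in cluster 21. Whether cluster 11 and cluster 21 differ by more than this was not tested.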
